A study of Mus musculus with 6 samples.

Results

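Actb encodes beta-actin, the cytoplasmic actin that builds stress fibres, the cell cortex and the leading edge of moving cells. It was read on these arrays by 1 probe, A_51_P173760, designed on transcript NM_007393 and printed in 10 spots per array. It is 1 of 50 gene probes on a circular RNA (circRNA) array that also carries 14236 circRNA probes, and it was chosen by its processed signal, lower in myotubes than in myoblasts, and because the gene is widely used as a reference. Its own difference between the groups is therefore given as a description, with no test. The RNA came from C2C12, an established mouse line of muscle precursor cells, as total RNA labelled with Cy3. The labels set 3 arrays of myoblasts, grown in 10% fetal bovine serum, against 3 arrays of myotubes, the cells after differentiation in 2% horse serum. Each group holds 3 independent experiments, per the study's design text. How many days the cells were differentiated, and whether linear RNA was removed before labelling, are not stated in the sources at hand, and how far the Actb signal stands for the amount of its messenger RNA is not known.

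Actin monomers assemble into filaments, and vertebrates carry closely similar actin genes, beta- and gamma-actin of the cytoplasm and separate actins of skeletal, cardiac and smooth muscle. During muscle differentiation the cytoplasmic actins are known to be turned down while the sarcomeric actins of the contractile filaments are turned on. Actb is transcribed under serum response factor, whose activity follows serum and the pool of free actin, and it is also a customary internal reference for RNA measurements, a use that assumes the same level in the groups compared.

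Actb was the only actin with a probe, 1 of the 6 actin genes looked up. None of 29 genes of actin binding and serum response was among the gene probes, and of 21 customary reference genes only Actb and Gpi1 were. None of 8 myoblast markers, 16 myotube markers, 6 fibroblast markers or 4 adipocyte markers had a probe, and of 6 proliferation genes only E2f1 had one, so the labelled cell states could not be checked on their defining genes. The Actb probe sequence is not used here. Beta- and gamma-actin messages are alike over long stretches, and whether the probe also bound another actin message was not tested. In these bulk samples, fewer cells that make a transcript and less of it per cell cannot be told apart.

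Actb gave a strong, unsaturated signal on every array. All 60 spots were well above background, none was saturated, and the raw spot signal lay 25.7 to 51.0 times above the local background as a mean per array. The scanner software marked 3 of the 60 spots as outliers, 1 each on the arrays of myoblast 3, myotube 1 and myotube 3, and these were left out. The flagged spot of myoblast 3, in array row 8, stood at a processed signal of 232, where the other spots of that array lay between 483 and 586. The other flagged spots, at 291 and 355, lay inside the processed range of their arrays.

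The Actb signal was lower on every myotube array than on every myoblast array before any scaling. The processed signal, which the software had background-subtracted and spatially detrended, averaged 551, 654 and 530 over the spots of myoblasts 1, 2 and 3. Over the spots of myotubes 1, 2 and 3 it averaged 289, 292 and 352. Myoblast 2 was the highest array and myotube 1 the lowest, and the groups did not overlap even spot by spot: the highest unflagged myotube spot stood at 381 and the lowest unflagged myoblast spot at 483. Averaged over arrays, the signal was 578 ± 66.4 (SD, n = 3) for the myoblast group and 311 ± 35.6 (SD, n = 3) for the myotube group. On the log2 scale these were 9.17 ± 0.16 and 8.27 ± 0.16 (SD, n = 3 each), a difference of -0.89 (SE 0.13), or 1.86-fold lower in myotubes.

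In the processed signal, the spots of an array were closer to each other than arrays of a group were. The processed signal varied between unflagged spots with a coefficient of variation from 3.56% on myotube 2 to 6.99% on myotube 1, and the standard error of an array's mean log2 signal was 0.016 to 0.033. The SD of the log2 signal between single spots was 0.052 on myotube 2 to 0.10 on myotube 1. Before detrending, the coefficient of variation between spots was wider on some arrays and reached 12.8% on myoblast 2. The SD between arrays of a group, 0.16 in each, was several times the standard error of an array's mean. The number of arrays and not the number of spots thus limits the precision of the Actb difference.

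Spot position entered the raw Actb signal on some arrays and not on others. Actb lies in 3 spots in array rows 3, 5 and 8 and in 7 spots further down. Before detrending, the upper 3 spots held 0.780, 0.775 and 0.834 of the mean of the other spots on the arrays of myoblasts 1, 2 and 3, and 0.929 on that of myotube 1. On the arrays of myotubes 2 and 3 this ratio was 1.002 and 1.02. The arrays with the low ratios shared the number 1 at the start of the barcode in the array headers, read here as the first row of the slide. The other 2 arrays, both of myotubes, had the number 2 and are taken as the second row. This reading of the barcode is used throughout and was not tested. After the software's detrending the ratio lay between 0.959, on myoblast 1, and 1.13, on myotube 1, with a recorded detrending fit of 0.0864 to 0.0987 in the first row, 0 on myotube 2 and 0.0306 on myotube 3.

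Without detrending, the upper 3 positions gave a mean log2 difference of -0.60 between myotubes and myoblasts, and the other 7 gave -0.93. After detrending these became -0.87 and -0.92. Taken singly, the 7 positions with an unflagged spot on all 6 arrays ranged from -0.93 to -0.85 after detrending and from -0.95 to -0.63 before it. The other 3 lack 1 array each, and with them the ranges were -1.09 to -0.82 and -1.13 to -0.53. The lowest value, at the position without myotube 3, compares myoblasts with the other 2 myotube arrays alone. Of the upper 3 positions 2 are incomplete, and the complete one had -0.88 after detrending and -0.63 before it. At each of the 10 positions the unflagged processed values of the groups did not overlap. Over all spots, leaving out the detrending changed the Actb difference from -0.89 to -0.83, and the raw median signal without background subtraction gave -0.80, so these steps moved it by less than the SD between arrays.

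**Figure D1:**
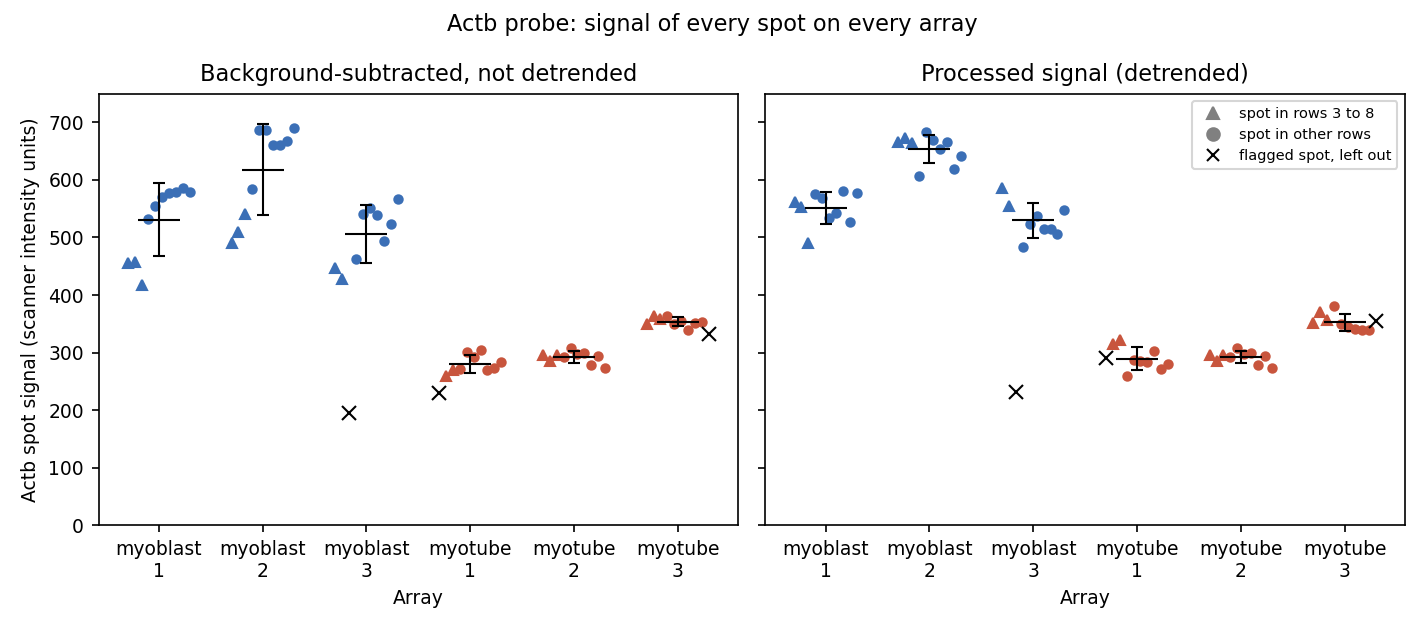
Signal of each Actb spot in scanner intensity units (linear axis from 0) on the 3 myoblast and 3 myotube arrays, before detrending at left and after it at right. Triangles are the spots in rows 3 to 8, circles the other spots, crosses the 3 flagged spots left out, and bars the mean ± SD over the remaining spots; the myoblast arrays average 530 to 654 and the myotube arrays 289 to 352 after detrending.

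The Actb difference was larger after scaling, since the percentile itself differed in the other direction. The 75th percentile of the processed signal over all non-control probes was 33.2, 36.4 and 30.2 on the arrays of myoblasts 1, 2 and 3 and 37.6, 53.3 and 55.0 on those of myotubes 1, 2 and 3, a log2 difference of 0.53 (SE 0.19). With that percentile subtracted, Actb stood at 4.05, 4.17 and 4.13 for myoblasts 1, 2 and 3 and at 2.94, 2.45 and 2.68 for myotubes 1, 2 and 3. The scaled difference was -1.43 (SE 0.15), or 2.69-fold lower in myotubes, and is the unscaled difference with the shift of the percentile taken off. Scaling narrowed the spread of Actb among myoblast arrays, from an SD of 0.16 to 0.060, and widened it among myotube arrays, from 0.16 to 0.24.

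The direction was the same on every array and under every reading tried, while the size was not. Against the median of all non-control probes Actb was lower by 1.51 on the log2 scale (difference -1.51, SE 0.14), and after quantile normalization the difference was -1.34 (SE 0.16). Against the mean of the 19 other gene probes that were above background on all 6 arrays it was -1.24 (SE 0.051), with an SD among myoblast arrays of 0.0078 and among myotube arrays of 0.087. These 19 probes thus moved together with Actb among the myoblast arrays more closely than the percentile did.

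Control spots and control probes of the array gave smaller mean differences between the groups than the percentile did. The bright corner spots, control spots of the array design, differed by 0.16 (SE 0.22) between the groups, which overlapped, and against them Actb had a difference of -1.06 (SE 0.15). Of the 10 spike-in control probes 2 were above background on all arrays, which does not amount to a dosed spike-in series. Their mean differed by 0.12 between the groups, and against it the Actb difference was -1.02 (SE 0.097). Whether these 2 probes read added spike-in RNA or RNA of the cells was not tested. The normexp correction, which adds an offset of 50 to every spot, gave -0.73 (SE 0.12) unscaled and -0.97 (SE 0.082) with the percentile. The share of differing RNA amount, labelling and scaling in these sizes was not tested.

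**Figure D2:**
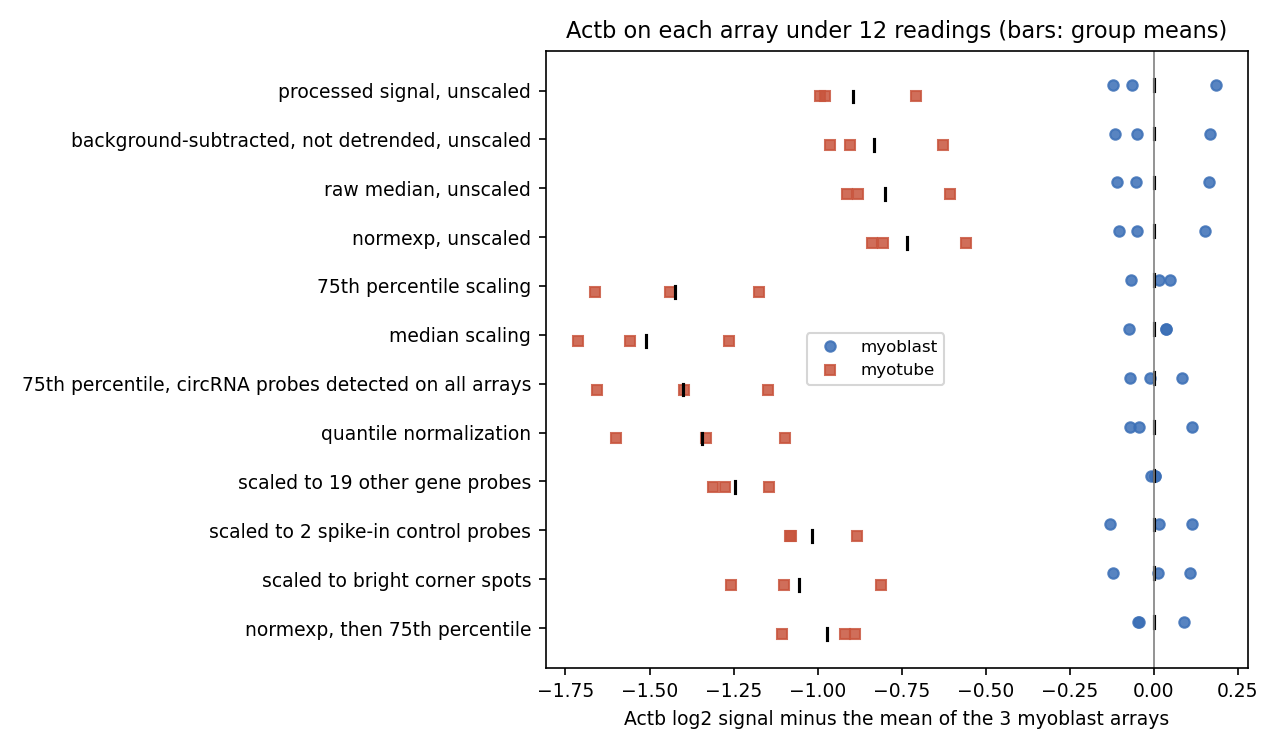
Actb log2 signal on each array minus the mean of the 3 myoblast arrays, for unscaled signals and for each scaling (circles myoblast arrays, squares myotube arrays, black bars group means). All myotube arrays lie below all myoblast arrays in each reading, with mean differences from -0.73 for unscaled normexp values to -1.51 for median scaling.

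Within the first slide row alone, where myotube 1 lay beside the 3 myoblast arrays, the unscaled Actb difference was -0.99 and thus as large as that over all arrays. The scaled difference there was -1.18, against -1.43 over all arrays, since the percentile of myotube 1 was closer to those of the myoblast arrays. Myotubes 2 and 3, in the second row, stood at -0.98 and -0.71 unscaled, and at -1.66 and -1.44 scaled. The rest of the group difference and slide row cannot be told apart, as the second row held no myoblast array.

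The gene probes with a profile most like that of Actb were sought among the 19 others above background on all arrays, by the root mean square difference of the centred, percentile-scaled log2 profiles over the 6 arrays. The nearest was the transcript AK004226, at 0.18, with processed signals of 55.5, 59.4 and 57.9 in myoblasts and 28.8, 35.9 and 45.7 in myotubes. It was followed by H2-Q7, a class I histocompatibility gene of a family with closely similar members, at 0.26, with 76.5, 138 and 76.7 in myoblasts and 51.1, 60.7 and 75.8 in myotubes. The next was Gsta4, an enzyme that conjugates reactive lipid aldehydes to glutathione, at 0.37, with 30.3, 30.8 and 22.2 against 7.09, 10.2 and 12.6. For these genes the unscaled signals of all myotube arrays lay below those of all myoblast arrays. Their scaled log2 differences were -1.20 (SE 0.17), -1.13 (SE 0.22) and -2.03 (SE 0.17), given without a test because the likeness was sought in this same contrast. Of the 26 gene probes fitted with limma, 38.5% passed an adjusted p of 0.05, with 19.2% in each direction; this share counts Actb and the 3 probes named here, and nothing about them is read from it. The median distance from Actb was 0.60 over the 19 gene probes. Likeness over 6 arrays is mostly a like group difference and says nothing on shared function or control.

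Among circRNA probes, named by their array identifiers because the files used here do not pair them with host genes, the nearest profiles were sought in the same way, over the 7697 above background on all arrays. ASCRP4006028 lay at a distance of 0.071 from Actb, ASCRP4009620 at 0.086 and ASCRP4006032 at 0.094, where the median over those probes was 0.73. Smaller minima come with a longer list, so these distances are not set against those of the 19 gene probes. ASCRP4009620 had processed signals of 103, 120 and 106 in myoblasts and 49.6, 57.6 and 71.9 in myotubes, and myoblast 2 and myotube 3 were the highest arrays of their groups, as for Actb. Its scaled log2 difference was -1.42 (SE 0.16), against -1.43 for Actb. The like order of arrays and the like difference follow from its choice by profile over these same arrays.

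Few circRNA probes differed downward by as much as Actb. As Actb was chosen for its lower signal in myotubes, its low place among them is a description only. Of the 9344 circRNA probes tested, 311 (3.33%) had a scaled log2 difference below that of Actb, and of the 7697 above background on all 6 arrays 190 did (2.47%). The median difference of the circRNA probes was 0.01 under this scaling, and 5% of them lay below -1.16. A probe entered the test if 1 group or both had it well above background throughout, and 19 such probes lacked an array because a flagged spot had been left out.

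The steadiest gene probes are given as a description. Their choice by a small SD over all 6 arrays already fixes a small scaled difference between the groups. Over the 6 arrays, the scaled log2 signal had the smallest SD for Lhx1, a developmental transcription factor (0.087), Gamt, an enzyme of creatine synthesis (0.14), and Apoe, an apolipoprotein of lipid transport (0.16). Apoe had processed signals of 166, 170 and 160 in myoblasts and 179, 210 and 230 in myotubes. The values of Lhx1 were 13.2, 13.7 and 10.7 in myoblasts and 13.9, 21.8 and 22.6 in myotubes, and those of Gamt 26.4, 27.8 and 25.5 against 30.6, 34.4 and 41.5. These unscaled signals were higher on each myotube array than on each myoblast array, as was the percentile itself. Steadiness relative to the percentile is thus steadiness relative to the arrays' overall brightness. Gpi1, a glycolytic enzyme and the other customary reference gene with a probe, had a scaled log2 difference of -0.29 (SE 0.23, limma adjusted p = 0.355).

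If Actb is taken as the internal reference, each array's mean log2 signal of Actb is subtracted from every circRNA probe. This adds the Actb difference of 1.43, with the sign turned, to each probe's scaled difference. The median circRNA difference then changed from 0.01 to 1.43 on the log2 scale, so that the middle circRNA probe appeared 2.70-fold higher in myotubes. The array values that carry this shift are the percentile minus Actb, -4.05, -4.17 and -4.13 in myoblasts and -2.94, -2.45 and -2.68 in myotubes.

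With the percentile as the reference, 3188 of the 9344 circRNA probes passed the threshold in limma (adjusted p under 0.05), which is 34.1%. Of the tested probes 19.1% were called higher and 15% lower in myotubes, so 55.9% of the calls were higher. With Actb as the reference 8587 were called, which is 91.9%, with 8461 (90.6%) higher and 126 (1.35%) lower. The share of higher calls was then 98.5%. Without any scaling 40.7% of the probes were called, 36.8% higher and 3.9% lower, so 90.4% of those 3804 calls were higher, and after normexp correction with the percentile 43.0% of 2820 calls were. Without the array of myotube 3, 2088 of 9391 tested probes were called with the percentile.

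**Figure D3:**
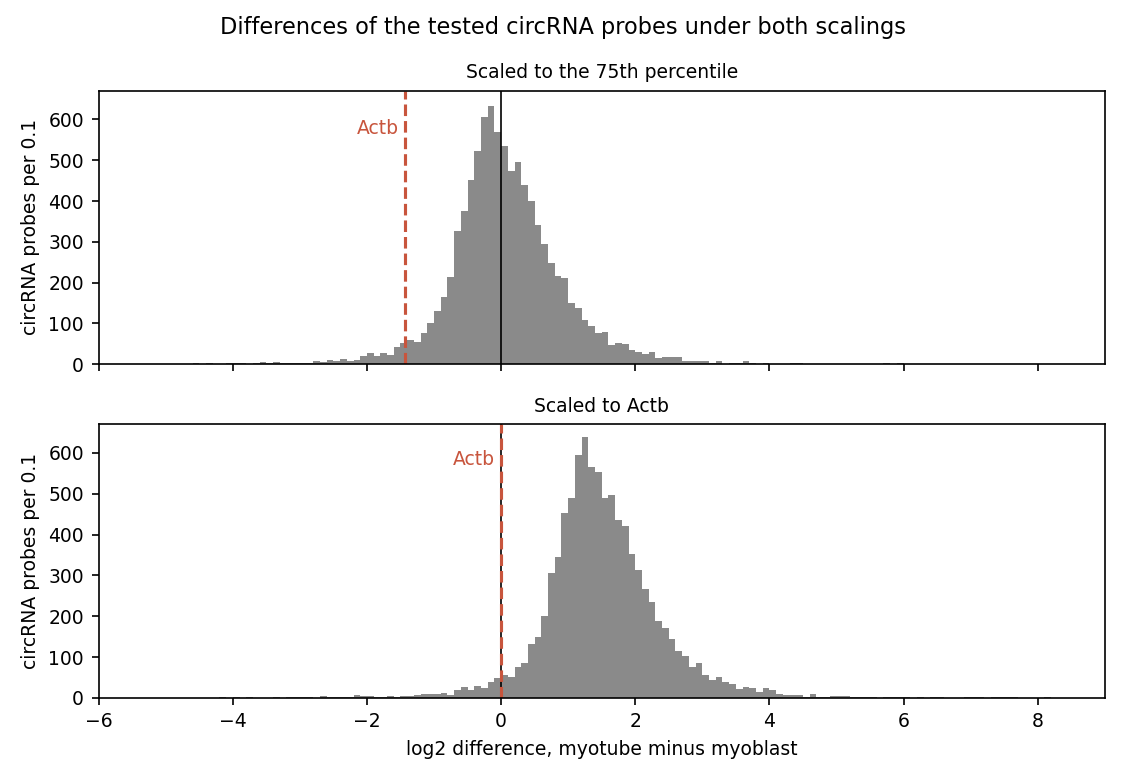
Number of circRNA probes per 0.1 of log2 difference, myotube minus myoblast, for the 9344 tested probes scaled to the 75th percentile (upper) or to Actb (lower). The dashed line marks Actb, at -1.43 above and by construction at 0 below; the whole distribution is displaced to the right in the lower panel, with its median at 1.43.

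Most of the calls made with Actb were absent with the percentile. Of the 8587 calls, 6010 were on probes not called with the percentile, and their median percentile-scaled difference was -0.01. All 1782 probes called higher with the percentile were also called higher with Actb. The 1406 called lower split in 3: 669 (47.6%) were called higher with Actb, 611 were not called, and 126 were called lower in both. The probes that turned had percentile-scaled differences from -0.97 to -0.45, those no longer called from -2.57 to -0.71, and those called lower in both from -5.53 to -1.95. The middle range overlaps both others, since a call rests on a probe's spread as well as on its difference. The turned probes are lower against the overall brightness of the arrays and higher against Actb, and both statements are about the same signals.

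Single probes show each of these outcomes, and as they were drawn by their calls, their p-values only restate those calls. ASCRP4006710, a very bright probe, had processed signals of 88209, 107808 and 102436 in myoblasts and 102310, 101789 and 108388 in myotubes, and its groups overlapped. It was not called with the percentile (log2 difference -0.46, SE 0.20, adjusted p = 0.104) and was called higher with Actb (0.96, SE 0.19, adjusted p = 0.00115). ASCRP4013042, with 88941, 91320 and 94097 against 86578, 92438 and 96106, overlapped too and went from -0.53 (adjusted p = 0.0571) to 0.90 (adjusted p = 0.00189). For both, the signal before scaling was nearly the same in the groups, with log2 differences of 0.07 and 0.0031. Whether the spots of these very bright probes were saturated is not given here.

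ASCRP4005515 was lower in myotubes before scaling, at 25944, 27806 and 25764 in myoblasts against 16890, 20826 and 19194 in myotubes. It was called lower with the percentile (log2 difference -1.02, SE 0.17, adjusted p = 0.00267) and not called with Actb (0.41, SE 0.20, adjusted p = 0.0769). ASCRP4003548 went the same way, from -1.12 (adjusted p = 0.0018) to 0.30 (adjusted p = 0.202). Neither call with the percentile held without scaling or after quantile normalization, where the latter's differences were -0.30 (adjusted p = 0.21) and -0.50 (adjusted p = 0.0607).

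The probes that turned from lower to higher are shown by the 2 with the greatest percentile-scaled decrease. ASCRP4010499 had processed signals of 54.1, 65.5 and 56.4 in myoblasts and 41.3, 37.2 and 53.2 in myotubes, lower on each myotube array. Its log2 difference was -0.96 with the percentile (SE 0.20, adjusted p = 0.00828) and 0.46 with Actb (SE 0.19, adjusted p = 0.0384). ASCRP4009202 gave -0.97 (adjusted p = 0.00381) and 0.46 (adjusted p = 0.0444). Both lie at the edge of the turned probes by choice, and the call with Actb was lost in 10 of 16 alternatives for the first and in 13 of 16 for the second. The lower call with the percentile was lost for each in 3 settings, among them no scaling and slide row as a block.

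The probes with the greatest decreases were lower by either reference. ASCRP4003188, with 673, 696 and 697 in myoblasts and 30.7, 50.2 and 49.8 in myotubes, was 23.4-fold lower with the percentile and 8.73-fold lower with Actb (log2 difference -3.13, SE 0.23, adjusted p = 1.17e-05). ASCRP4001146, with 436, 366 and 383 against 20.5, 28.7 and 27.4, was 22.5-fold and 8.38-fold lower. Among called probes, 580 were at least 2-fold lower with the percentile and 80 with Actb, and 1007 were at least 2-fold higher with the percentile and 7166 with Actb.

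Scaling to Actb adds the same amount at every level of brightness, so the counts by brightness describe where the probes then lay. Among the 3115 dimmest tested probes 2794 were called higher and 63 lower with Actb, among the 3114 of middle brightness 2841 and 38, and among the 3115 brightest 2826 and 25. In that order, the median log2 difference with Actb was 1.62, 1.42 and 1.30, and the unscaled median was 0.72, 0.53 and 0.40.

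Scaling to Actb also left the replicates less close to each other than the percentile did. The percentile is drawn from non-control probes that include the circRNA probes compared here, which favours it, whereas Actb is not a circRNA probe. The median residual SD of the circRNA probes was 0.32 without scaling, 0.24 with the percentile and 0.29 with Actb, and 68.0% of the probes had the smaller residual SD with the percentile. The error of the Actb mean is shared by all probes of an array, so the 8587 calls are not independent of each other.

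The gene probes moved in the same way. With Actb as the reference 23 of the 25 other tested gene probes were called, which is 92%: 22 (88%) were higher in myotubes and 1 (4%) lower. The lower one was Gsta4, at -0.61 (SE 0.20), while AK004226, at 0.22 (SE 0.17), and H2-Q7, at 0.30 (SE 0.20), were not called. These 3 had been picked for their likeness to Actb, which fixes small differences against it. Lhx1, Gamt and Apoe, which differed by 0.08, -0.13 and -0.22 with the percentile, then had differences of 1.503, 1.30 and 1.21, which follows from their choice as the steadiest probes under the percentile.

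Each of 18 other gene probes was also taken as the only reference, to set Actb among them. The number of called circRNA probes ranged from 1691 with Prdx2, a peroxidase, to 9094 with Gsta4, with a median of 3471. More probes than with Actb were called with 2 of the 18, Gsta4 and Hspb7, a small heat shock protein of muscle. With Hspb7, whose own scaled difference was 2.57, the calls went the other way: 8890 lower and 40 higher. With Lhx1 the calls were 1454 higher and 1463 lower. A reference adds its own group difference, with the sign turned, to every probe, and its spread enters every residual. On the percentile-scaled log2 values, the SD between arrays within groups was 0.18 for Actb, which 7 of the 18 others undercut, and 0.53 for Anxa8, whose scaled difference of 0.98 gave 3606 calls. On the unscaled values that SD was 0.16 for Actb, and 3 of the 18 were below it. The mean of the 19 other gene probes gave 2995 calls, 74.1% of them higher, and adding Actb to that mean gave 3163.

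**Figure D4:**
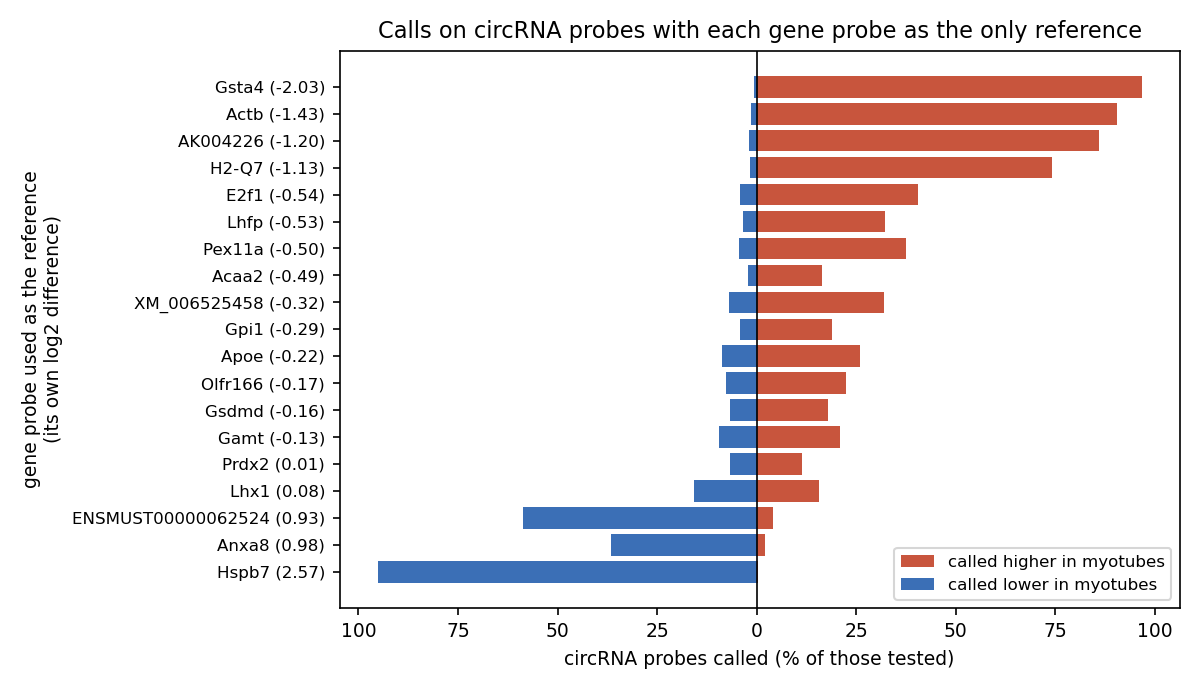
Share of the 9344 tested circRNA probes called higher (to the right) or lower (to the left) in myotubes with Actb or 1 of 18 other gene probes as the only reference, ordered by that probe's own percentile-scaled log2 difference, given in parentheses. Actb, at -1.43, gives 90.6% higher and 1.35% lower calls; Lhx1, at 0.08, gives about as many in each direction; Hspb7, at 2.57, gives nearly all lower.

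A single printed spot could change the number of calls where the reference was not averaged. With each of the 10 Actb spot positions alone as the reference, 9 gave 8484 to 8670 called circRNA probes. The position in array row 8, whose spot on the array of myoblast 3 was the flagged one at 232, gave 3584, of which 96.7% were higher. Flagged spots were kept in these single-position references, also those of myotube 1 and myotube 3. With all spots, keeping the flagged ones changed the Actb difference from -0.89 to -0.85 unscaled and the calls with Actb from 8587 to 8504.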

How the data were processed

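Per the labels, total RNA of C2C12 cells was labelled with Cy3 and hybridised to 6 one-colour arrays. Per the file headers, the scanner tables were made with Feature Extraction 11.0.1.1. The deposited processed signal is a linear intensity, background-subtracted and detrended by the software and not scaled between arrays. The deposited value table of the series holds log2 values of 11128 circRNA probes and not Actb; no source at hand says how the authors made them.

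Spots with an outlier flag were left out and spots of a probe averaged as log2. The main scaling subtracted each array's 75th percentile over non-control probes. Probes printed more than once needed 50% of their spots above background to count as detected. Tests used limma 3.58.1 in R 4.3.3 (lmFit, eBayes, 2-sided, Benjamini-Hochberg, threshold 0.05), with circRNA and gene probes fitted apart and no block. The pipeline was tested on simulated data.

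Actb, the lists and the tests were chosen with earlier results of these data known. Named probes were the 3 gene and 3 circRNA probes most like Actb, the 3 steadiest gene probes, and 2 circRNA probes per outcome of the change of reference: the greatest fall among those turned or lower in both, the brightest among those lost or gained. They were drawn from probes above background on all arrays; Gpi1 and E2f1 were named as list members, and Prdx2, Hspb7 and Anxa8 after their values were seen. Gene symbols came from a RefSeq table of GRCm38.p6, which named 44 of 50 gene probes. The headers give another build, so no coordinates are printed. The result of 1 gene probe as the only reference is not reported here.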

Additional observations from a re-analysis of the deposited data

How the results depend on the processing

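The percentile-scaled Actb difference of -1.43 was -0.97 after normexp correction, -1.24 against 19 other gene probes, -1.02 against the spike-in control probes, -1.06 against the bright corner spots, and -1.18 both with slide row as a block and in the first slide row alone. The bright corner, first-row and single-gene settings were chosen after seeing the data. Leaving out 1 array gave -1.55 to -1.31, and -0.99 to -0.80 unscaled. The 3188 calls with the percentile became 1630 with slide row as a block and 1079 in the first row alone, where myotube 1 alone gives the difference and is assumed to vary like the other arrays; leaving out 1 array gave 2088 to 3118, the lowest without myotube 3. The 8587 calls with Actb became 8289 of 9380 tested probes without myoblast 2 to 9287 of 9946 without myotube 1. Higher calls numbered 8158 to 9173 when 1 array was left out. Other references gave 2995 calls (2220 higher) with 19 gene probes, 3163 (2480 higher) with Actb added, 3339 (2887 higher) with spike-in control probes, 3721 with bright corner spots and 3584 (3465 higher) with the Actb spot of row 8 alone. The single genes that changed the count by more than 1.5 times gave 4181 with E2f1, 1724 with Acaa2, 1691 with Prdx2, 3233 with Apoe, 2288 with Gsdmd, 3622 with XM_006525458, 3606 with Anxa8, 2829 with Olfr166, 2163 with Gpi1, 2917 with Lhx1, 3924 with Pex11a, 2853 with Gamt and 3336 with Lhfp. Counts nearer to that with Actb came with Gsta4 (9094), AK004226 (8209) and H2-Q7 (7097), mostly higher. Hspb7 (8930) and ENSMUST00000062524 (5867) also stayed nearer, but their calls were mostly lower. Apart from a change of reference, no setting tried moved the calls with Actb by 1.5 times. The number of probes tested changed with the filter: 7148 of 7697 probes above background on all 6 arrays were called, and 12545 of 14233 without a filter. The percentile-scaled difference of ASCRP4006710 turned to 0.052 after quantile normalization and to 0.071 without scaling, and ASCRP4013042 to 0.0031 without scaling; neither was called there. For the named circRNA probes and the 3 gene probes most like Actb 405 values were recomputed. Of these, 358 kept direction and call, 38 lost the call, 6 gained one and 3 turned. Those kept include ASCRP4006710 and ASCRP4013042 in the deposited values, at -4.9e-15 and -3.3e-15. There the sign is rounding error and no direction was kept. With the replicate number as a block, 2828 probes were called with the percentile and 8515 with Actb, and the Actb difference was -1.43. Deviations of same-numbered arrays correlated at -0.0188, 0.0181 and -0.0877 across probes, and those of differently numbered arrays at -0.124 to 0.145. With 3 arrays per group these correlations cannot decide whether the numbers pair the arrays. The block changed no count by 1.5 times. The planned raw mean spot signal was not run, since the tables used here hold the median. The causes of these changes were not tested, except that a change of reference adds its own difference to every probe. Actb lay far above background on every array, and its difference moved more with the correction and scaling, from -0.73 to -1.51, than its SE of 0.13 unscaled or 0.15 with the percentile.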
